A study of Homo sapiens with 6 samples.

Results

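p53 is known to activate many genes, and 39 of these other than CDKN1A (p21) and BAX were followed by RNA sequencing in MOLM-13, a human acute myeloid leukaemia line. One group of cells received DB2115 at 5 µM and the other its vehicle, 0.001% DMSO, each for 20 h in RPMI with 10% serum. The genes were listed by name, with no threshold on their values, and all 39 were found by symbol among the 58381 gene identifiers of the count table. DB2115 is a small molecule studied here in connection with the myeloid transcription factor PU.1. The labels give 3 replicates per group by number, whereas the table has lettered columns, of which 1 per group was nearly the sum of the other 2. The 2 remaining libraries of each group, A and B, were compared. Whether they came from separate cultures is not stated, so each p-value reflects variation among these libraries alone, and part of it could be technical. MOLM-13 is a single established line, known for its KMT2A-MLLT3 fusion and FLT3 internal tandem duplication.

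p53 is a transcription factor that is held at a low level by the ubiquitin ligase MDM2 and its partner MDM4. DNA damage, nucleolar stress and other signals free it from them, mostly by stabilising the protein. Its targets include its own inhibitors, DNA repair factors, brakes on the cell cycle, death receptors and pro-death factors, and enzymes that limit oxidative stress. Many of these genes also have p53-independent control in blood cells, for example by the ATF4 stress response, by FOXO factors or during differentiation.

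Of the 39 genes, 38 passed the filter on low counts, 24 were higher and 8 lower in DB2115 (edgeR adjusted p under 0.05), and 6 were not called. Over all 17219 genes tested, 32.7% were higher and 31.3% lower, 64.1% in all, so a call on a single member is common in this comparison. The same shares are the background for the counts of each role and list below. The members' share of higher calls was 63.2%, and their share of lower calls 21.1%. Their median log2 fold change was 0.60, against 0.03 over all tested genes. At least 2-fold higher and called were 16 members, where 17.5% of tested genes were, and 0 members were lower by that much, where 9.53% of tested genes were. The groups were without overlap for 35 of the 38 tested members, all 32 called ones included, and for 81.3% of all tested genes. One of the 24, EDA2R, had no count in vehicle and could pass the filter only by being higher in DB2115. In bulk RNA, more RNA per cell and a larger share of cells of a kind cannot be told apart.

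**Figure D1:**
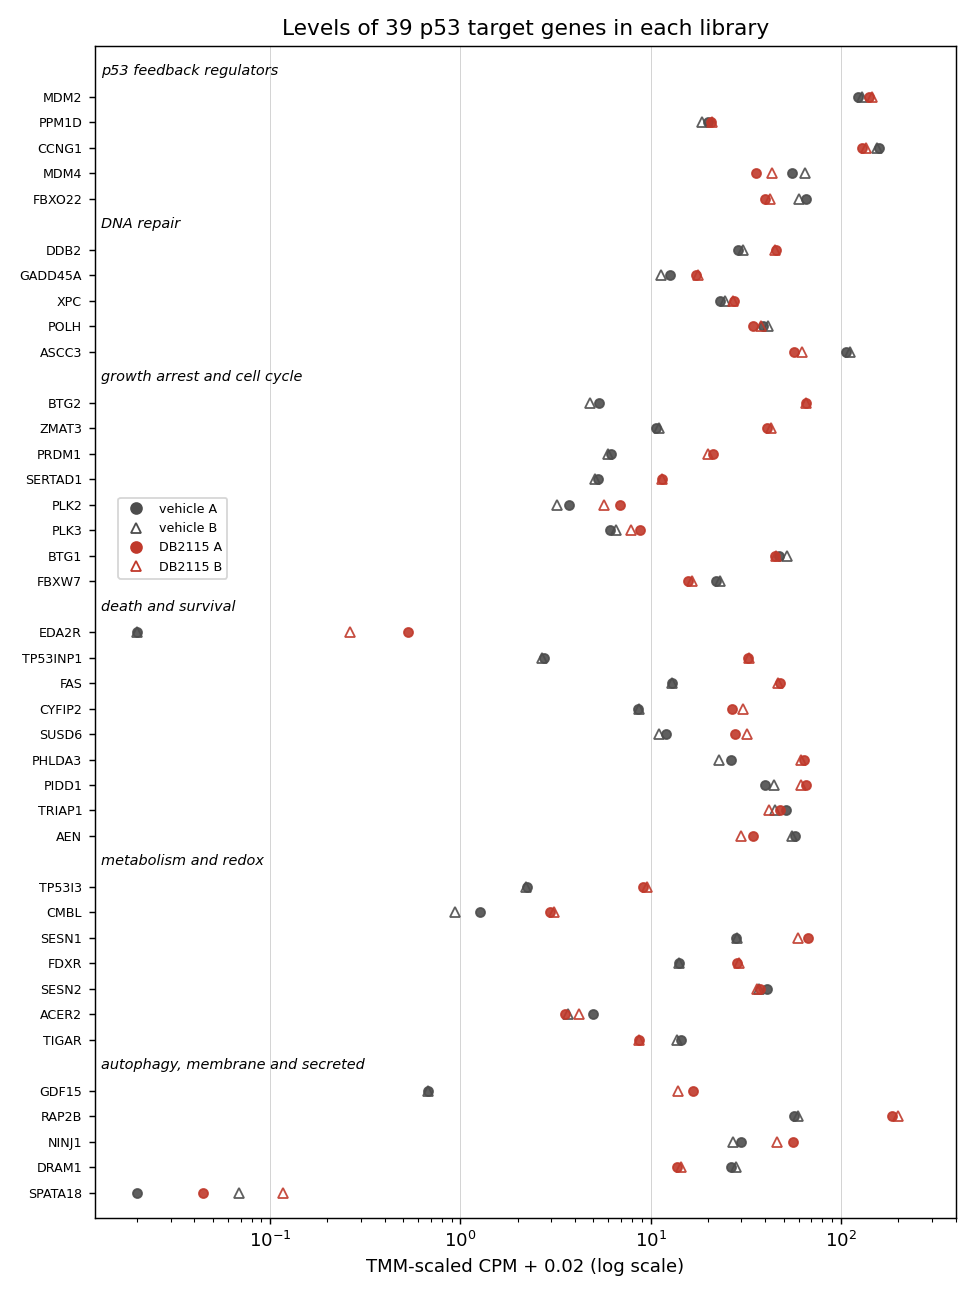
Level of each p53 target gene in each library, as TMM-scaled CPM plus 0.02 on a log axis, with genes grouped by role and ordered by fold change. Grey symbols are vehicle and red symbols DB2115, with circles for library A and triangles for library B. GDF15, BTG2 and TP53INP1 show the widest gaps between the groups among genes with vehicle counts, and DRAM1 and ASCC3 lie to the left of their vehicle values.

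The reference target CDKN1A, the cyclin-dependent kinase inhibitor p21, stood at 147 and 133 CPM (counts per 1000000 counted reads, with TMM scaling between libraries) in vehicle libraries A and B and at 695 and 664 CPM in DB2115 libraries A and B. BAX, the pore-forming death effector, had 70.2 and 63.8 CPM in vehicle and 87.6 and 74.2 CPM in DB2115. Their log2 fold changes were 2.28 and 0.27, and the call on BAX was lost without DB2115 library A (adjusted p = 0.0759) or vehicle library B (0.157).

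Matches to the p53 consensus lie close to a transcription start of some of these genes, and the closest match of each gene is shown because these belong to members that moved in different directions. RefSeq promoter windows (250 bases before to 50 after a start, GRCh38.p14) were matched by symbol for 33 of the 39 genes, with 50 windows, some of which overlap. The p53 consensus decamer, which reads the same on both strands, was searched as a pair with a spacer of 0 to 13 bases and at most 2 mismatches over the pair, none of them at the fixed C and G. In the sequences, given 5′ to 3′ on the strand of the gene, capitals mark bases that fit the consensus, and lower case marks mismatches and the spacer.
DDB2: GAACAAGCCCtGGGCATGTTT
FAS: GGACAAGCCCtGACAAGCCa
MDM2: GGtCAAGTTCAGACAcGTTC
FDXR: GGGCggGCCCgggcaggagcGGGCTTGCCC
AEN: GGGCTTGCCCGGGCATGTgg

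Positions are counted from the start that defines each window, and several genes have more than 1 start. The closest DDB2 pair, of 3 found in its window, has 0 mismatches and a spacer of 1 base, and lies at chr11:47214979-47214999 on the plus strand. This is at positions 6 to 26 in the downstream one of 2 windows (chr11:47214724-47215023). The closest FAS pair, of 2 found, lies at chr10:88991309-88991328 on the plus strand, at positions -122 to -103 in the most downstream of 3 windows (chr10:88991181-88991480), inside the annotated gene. For MDM2 the pair is at chr12:68808923-68808942 on the plus strand and falls in 2 overlapping windows, the most downstream of 4. FDXR has its pair at chr17:74872996-74873025 on the minus strand with a spacer of 10 bases, at positions -31 to -2, and AEN at chr15:88621306-88621325 on the plus strand, at positions -34 to -15. Such a pair was found in 6 of the 50 member windows (12%) and in 2.93% of all 35116 windows. An exact decamer was found in 7 member windows (14%) and in 6.63% of all windows, with PLK2, RAP2B and SESN1 holding one outside such a pair. A match is a description of these letters only, and p53 sites are often in first introns, outside these windows. DDB2, FAS, FDXR and MDM2 were higher in DB2115, whereas AEN was lower.

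Regulators of p53 that are also its targets were the role with the lowest median (log2 fold change -0.24), with 1 of 5 higher and 3 lower. MDM2 (chr12:68808176-68850686, plus strand), the ligase that marks p53 for degradation, had 123 and 129 CPM in vehicle and 141 and 146 CPM in DB2115. The groups did not overlap, but the rise was small (log2 fold change 0.18, SE 0.06, edgeR adjusted p = 0.0175). Leaving out DB2115 library B (adjusted p = 0.0647), vehicle library A (0.161) or vehicle library B (0.0643) ended that call. MDM4 (chr1:204516379-204558120, plus strand), which binds p53 and blocks its activity, fell from 55.5 and 64.4 CPM to 35.8 and 43.4 CPM (log2 fold change -0.60, SE 0.10, edgeR adjusted p = 0.000124). All DB2115 values lay below all vehicle values. FBXO22, an F-box protein reported to target methylated p53, fell from 65.5 and 60.1 CPM to 39.6 and 42.2 CPM (log2 fold change -0.62). Of its exon sequence 16.2% overlaps NRG4 on the other strand, which was below 3 CPM in every library. CCNG1, cyclin G1, which recruits a phosphatase to MDM2, fell from 159 and 154 CPM to 129 and 136 CPM (log2 fold change -0.24, edgeR adjusted p = 0.00346). That small fall was no longer called with total-count scaling (adjusted p = 0.0532). PPM1D, the WIP1 phosphatase that switches off damage signalling, was at 20.1 and 18.5 CPM in vehicle and 20.7 and 21 CPM in DB2115 and was not called (edgeR adjusted p = 0.279).

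DNA repair genes split, with 3 of 5 higher and 1 lower, and none changed by 2-fold. DDB2, the damage sensor of nucleotide excision repair, rose from 28.9 and 30.4 CPM to 45.8 and 45.2 CPM (log2 fold change 0.62, SE 0.07, edgeR adjusted p = 6.33e-06). GADD45A, a growth arrest and repair factor, rose from 12.6 and 11.3 CPM to 17.3 and 17.7 CPM (log2 fold change 0.55). XPC, which binds helix distortions ahead of excision repair, had 23 and 24.5 CPM in vehicle and 27.5 and 27.1 CPM in DB2115 (log2 fold change 0.20, edgeR adjusted p = 0.0440). Its call was lost with DESeq2 (adjusted p = 0.127), with no count filter (0.113), and when any 1 of the 4 libraries was left out (0.0680 to 0.251). Of the annotated exon sequence of XPC, 23.8% overlaps an antisense gene, AC093495.1, whose level was at most 0.740 CPM in these libraries, and 6.63% overlaps LSM3, which had 61.0 to 63.9 CPM in vehicle and 39.8 to 45.7 CPM in DB2115. ASCC3, a helicase of alkylation repair and of stalled ribosome rescue, fell from 106 and 111 CPM to 56.4 and 62.7 CPM (log2 fold change -0.86, SE 0.07, edgeR adjusted p = 2.10e-07). POLH, the translesion polymerase eta, had 38.7 and 41.2 CPM in vehicle and 34.5 and 37.9 CPM in DB2115 and was not called, except lower when DB2115 library B was left out (log2 fold change -0.23, adjusted p = 0.0135).

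Genes of growth arrest and the cell cycle were mostly higher, with 6 of 8 called higher and 1 lower and a median log2 fold change of 1.01. BTG2 (chr1:203305491-203309602, plus strand), an antiproliferative factor that recruits the mRNA deadenylase complex, was at 5.32 and 4.80 CPM in vehicle and at 65.8 and 65.5 CPM in DB2115. Its log2 fold change was 3.70 (SE 0.09, edgeR adjusted p = 5.59e-12), higher than in 96% of tested genes. ZMAT3, a zinc finger protein that binds RNA, rose from 10.6 and 11 CPM to 40.8 and 42.7 CPM (log2 fold change 1.95). PRDM1, the transcriptional repressor BLIMP1 of plasma cell differentiation, rose from 6.21 and 5.98 CPM to 21.2 and 20.1 CPM (log2 fold change 1.76). In each of these 3 genes the libraries of a group lay close together, far from those of the other group.

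The other genes of this role had smaller fold changes. SERTAD1, a regulator of CDK4 and E2F activity, rose from 5.27 and 5.09 CPM to 11.5 and 11.5 CPM (log2 fold change 1.15). Among the polo-like kinases, PLK2 rose from 3.70 and 3.20 CPM to 6.89 and 5.65 CPM (log2 fold change 0.87, SE 0.17). PLK3 was at 6.06 and 6.59 CPM in vehicle and 8.72 and 7.88 CPM in DB2115 (log2 fold change 0.39, SE 0.13, edgeR adjusted p = 0.0205). The PLK3 call was lost with DESeq2 (adjusted p = 0.0716) and without DB2115 library A (0.0964), vehicle library A (0.117) or vehicle library B (0.0511). FBXW7, the ligase subunit that targets MYC and cyclin E, fell from 21.9 and 23.2 CPM to 15.7 and 16.5 CPM (log2 fold change -0.49). BTG1, the paralogue of BTG2, had 47.2 and 51.8 CPM in vehicle and 44.8 and 45.5 CPM in DB2115 and was not called (edgeR adjusted p = 0.115).

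Death and survival genes were mostly higher as well, with 7 of 9 called higher and 1 lower and a median log2 fold change of 1.38. Among the 7 is EDA2R, which had no vehicle count and could pass the filter only through DB2115. TP53INP1, a cofactor of p53 phosphorylation and of autophagy, was at 2.73 and 2.66 CPM in vehicle and at 32.6 and 32.8 CPM in DB2115 (log2 fold change 3.60, SE 0.11, edgeR adjusted p = 2.65e-11). FAS (chr10:88990582-89015785, plus strand), a death receptor, rose from 13 and 13 CPM to 47.6 and 46.5 CPM (log2 fold change 1.86, SE 0.08, edgeR adjusted p = 5.18e-10). ACTA2, on the other strand, shares 8.94% of the FAS exon sequence and had 1.74 to 1.86 CPM in vehicle and 6.65 to 7.08 CPM in DB2115. CYFIP2, a member of the WAVE actin complex, rose from 8.60 and 8.69 CPM to 26.7 and 30.4 CPM (log2 fold change 1.72). PHLDA3, which competes with AKT for membrane lipids, rose from 26.4 and 22.8 CPM to 64 and 61.7 CPM (log2 fold change 1.35), and SUSD6, a membrane protein, from 12 and 11 CPM to 27.6 and 32.2 CPM (1.38). PIDD1, the scaffold that activates caspase-2, rose from 39.9 and 44.6 CPM to 65.6 and 61.8 CPM (log2 fold change 0.59). A stretch of 1.82% of its exon sequence overlaps the ribosomal gene RPLP2 on the other strand, which had 785 to 869 CPM in vehicle and 600.0 to 746 CPM in DB2115.

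EDA2R, a TNF receptor family member, had 0 counts in both vehicle libraries and 31 counts over the DB2115 libraries, at 0.513 and 0.242 CPM. Taking 3 counts over the vehicle group as the limit, it was at least 9.59-fold higher in DB2115 (edgeR adjusted p = 0.000823), and its level stayed below 1 CPM. That figure takes the DB2115 counts as exact, and the exact 95% counting interval of the ratio begins at 7.35. The apoptotic nuclease gene AEN went the other way, from 57.4 and 55.2 CPM to 34.7 and 29.7 CPM (log2 fold change -0.81, SE 0.08, edgeR adjusted p = 1.72e-06). TRIAP1, a small anti-apoptotic protein of mitochondria, had 51.2 and 45 CPM in vehicle and 47.8 and 42.1 CPM in DB2115, with overlapping groups and no call (edgeR adjusted p = 0.328). It was called lower when DB2115 library A was left out (log2 fold change -0.19, adjusted p = 0.0317).

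Among genes of metabolism and redox control 4 of 7 were higher, all of these by at least 2-fold, and 1 was lower. TP53I3, a quinone oxidoreductase linked to oxidative stress, rose from 2.22 and 2.20 CPM to 9.09 and 9.52 CPM (log2 fold change 2.07, SE 0.15). SESN1, a sestrin that restrains mTORC1, rose from 28 and 28.6 CPM to 66.7 and 59.1 CPM (log2 fold change 1.15). FDXR, the ferredoxin reductase of mitochondrial steroid and iron-sulphur metabolism, rose from 14.1 and 14.1 CPM to 28.4 and 29.2 CPM (log2 fold change 1.03, edgeR adjusted p = 2.22e-07). CMBL, a hydrolase, stayed low and rose from 1.25 and 0.920 CPM to 2.93 and 3.09 CPM (log2 fold change 1.48, SE 0.26). TIGAR, which lowers glycolytic flux, fell from 14.3 and 13.8 CPM to 8.63 and 8.67 CPM (log2 fold change -0.70, edgeR adjusted p = 6.27e-05). Of its annotated exon bases 42.6% are shared with AC008012.1, a gene on the same strand in GENCODE release 29. The count table has no identifier for that gene, so any reads from it could not be told apart from those of TIGAR. SESN2, the second sestrin, had 40.7 and 37.1 CPM in vehicle and 37.8 and 36.4 CPM in DB2115 and was not called (edgeR adjusted p = 0.439). The ceramidase gene ACER2 had 4.95 and 3.66 CPM in vehicle and 3.52 and 4.20 CPM in DB2115, with overlapping groups and no call (edgeR adjusted p = 0.530).

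The remaining members act in autophagy, at the cell surface or outside the cell, and 3 of the 4 tested were higher and 1 lower. GDF15 (chr19:18374731-18389176, plus strand), a secreted stress cytokine, was at 0.655 and 0.654 CPM in vehicle (50 counts in all) and at 16.7 and 14 CPM in DB2115 (1263 counts). This 23.5-fold difference (log2 fold change 4.55, SE 0.18, edgeR adjusted p = 3.40e-10) was the largest fold change among members with vehicle counts. RAP2B (chr3:153162270-153170620, plus strand), a small GTPase, rose from 56.9 and 59.5 CPM to 186 and 199 CPM (log2 fold change 1.73, SE 0.06, edgeR adjusted p = 1.93e-10). It had the highest CPM of any member in DB2115. NINJ1, which ruptures the plasma membrane of dying cells, rose from 30 and 27 CPM to 55.8 and 45.8 CPM (log2 fold change 0.84). DRAM1, a lysosomal membrane protein that promotes autophagy, fell from 26.4 and 27.9 CPM to 13.7 and 14.4 CPM (log2 fold change -0.95, SE 0.09, edgeR adjusted p = 7.29e-07), the lowest fold change of all tested members. SPATA18, a factor of mitochondrial quality control, had 2 counts over the vehicle and 5 over the DB2115 libraries and was not tested. The ratio of its summed counts, scaled by library size, was 2.32 with an exact 95% counting interval from 0.380 to 24.4.

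**Figure D2:**
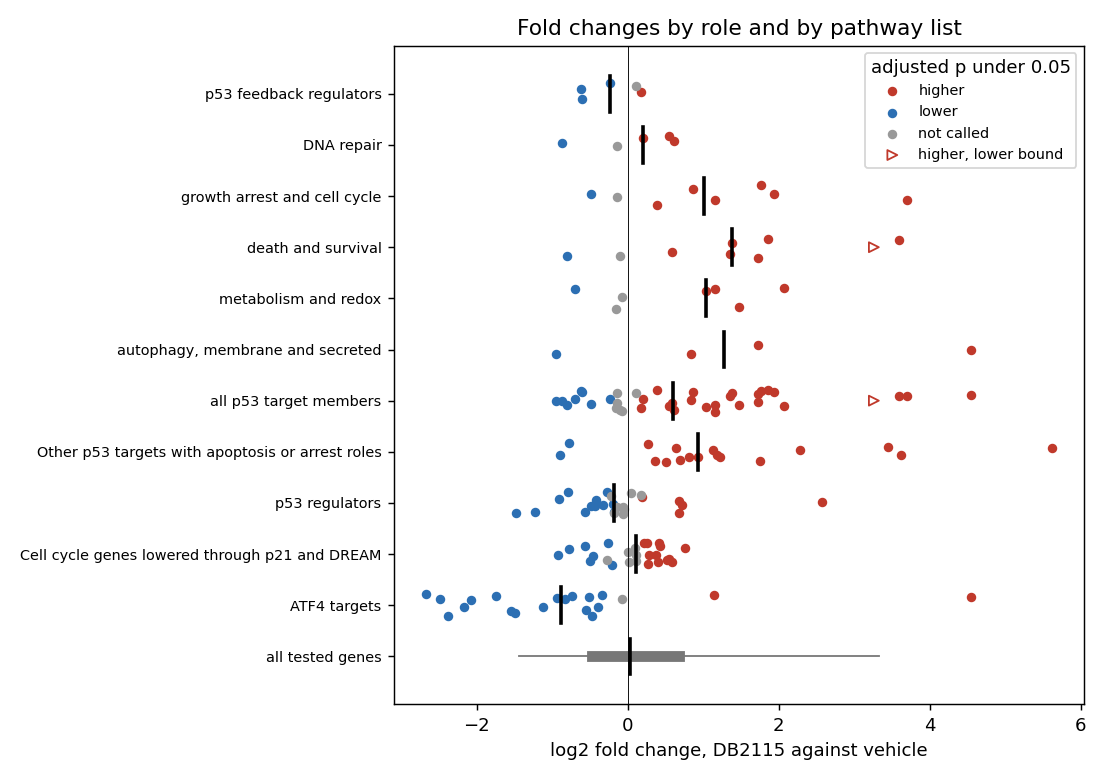
Log2 fold change of each tested gene (DB2115 against vehicle) by role, for the tested p53 targets together, for 4 other lists and for all tested genes. Black bars are medians, colours show the call, the open triangle is the lower bound for EDA2R, and the grey bar and line for all genes span the middle 50% and the 5th to 95th percentile. Of the feedback regulators 3 of 5 are called lower, most other roles extend to the right, and the ATF4 targets lie mostly to the left.

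Related members diverged from each other within the same libraries, a comparison that does not depend on the scaling between libraries. Per kilobase of annotated exon, the BTG2 to BTG1 ratio of levels was 0.199 and 0.163 in vehicle and 2.59 and 2.53 in DB2115, so that the order of the paralogues turned. SESN1 to SESN2 also turned, from 0.464 and 0.519 to 1.19 and 1.10. The ratio of MDM2 to MDM4 was above 1 throughout and went from 1.84 and 1.67 to 3.27 and 2.78, a 1.73-fold difference of the means. DDB2 to XPC went from 1.23 and 1.22 to 1.63 and 1.64, and PLK2 to PLK3 from 0.445 and 0.354 to 0.576 and 0.524. The gene with the larger fold change was made the numerator, so the common direction of the 5 pairs follows from that choice. With 2 libraries against 2 an exact permutation test cannot give a two-sided p below 0.333, so these ratios are given as values.

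**Figure D3:**
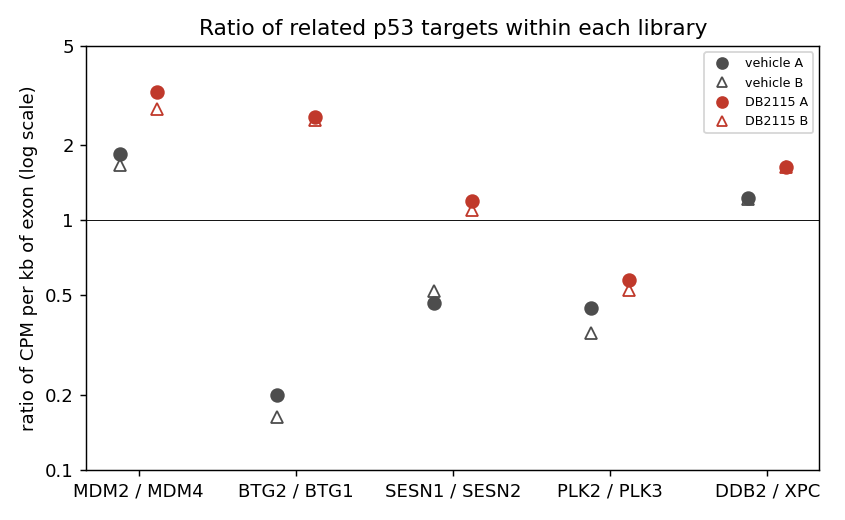
Ratio of the levels of 5 pairs of related p53 targets within each library, as CPM per kilobase of annotated exon on a log axis, with the line at a ratio of 1. Grey symbols are vehicle and red symbols DB2115, with circles for library A and triangles for library B. BTG2 to BTG1 and SESN1 to SESN2 cross the line, and the numerator is the gene with the larger fold change in each pair.

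Per kilobase of exon, CCNG1 had the highest level of the members in both conditions, with 50.6 CPM per kb in vehicle and 42.8 in DB2115. TRIAP1 followed, with 33.4 and 31.2 CPM per kb. In vehicle the next were POLH and SESN2, both at 11.3 CPM per kb and not separable. In DB2115 the next were BTG2 (23.8 CPM per kb), RAP2B (23.1) and PHLDA3 (20.0), which in vehicle had 1.84, 6.96 and 7.84 CPM per kb. The summed level of the 39 genes was 1169 and 1175 CPM in vehicle and 1539 and 1555 CPM in DB2115. Levels in vehicle differed between the members higher by at least 2-fold and the lower members, none of which changed by 2-fold. The 16 members higher by at least 2-fold had a median vehicle level of 7.37 CPM (range 0 to 58.2), and the 8 lower members one of 58.1 CPM (range 14.1 to 157). Members called higher by less than 2-fold are left out of this contrast, and their vehicle means ran from 3.45 CPM (PLK2) to 126 CPM (MDM2). The vehicle level is part of both quantities, so this is a description of the members.

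**Figure D4:**
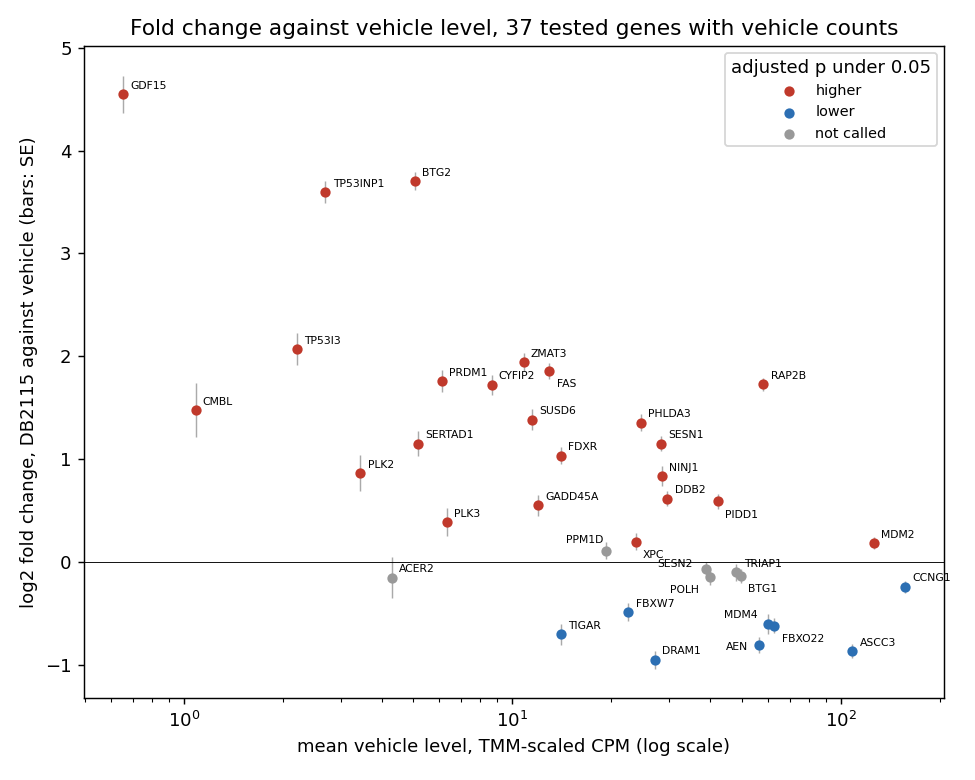
Log2 fold change (DB2115 against vehicle, bars show the SE) against the mean vehicle level in TMM-scaled CPM on a log axis, for the 37 tested members with vehicle counts. The 8 lower genes, in blue, lie between 14.1 and 157 CPM, and GDF15, TP53INP1 and BTG2 lie at the upper left.

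A list of 18 other p53 targets with roles in death or arrest includes CDKN1A and BAX. Of the 17 tested, 15 were higher and 2 lower (median log2 fold change 0.93), or 88.2% and 11.8%. Over all tested genes these shares were 32.7% and 31.3%. Among the 15, SFN, PERP and TNFRSF10C could pass the filter only through DB2115, with 17, 4 and 2 counts over the vehicle libraries. When 1 CPM in 3 libraries was required, 12 of 14 were higher and 2 lower (median log2 fold change 0.84). SFN, the cell cycle inhibitor 14-3-3 sigma, rose from 0.142 and 0.291 CPM to 11 and 11.3 CPM, and TNFRSF10D, a decoy receptor for TRAIL, from 21.5 and 22 CPM to 71.2 and 74.8 CPM. TP53I11 rose from 114 and 112 CPM to 267 and 246 CPM. The 2 lower genes were PMAIP1 (log2 fold change -0.90) and BID (-0.77). Both are BH3-only genes, but BBC3, another BH3-only gene of the list, was higher (log2 fold change 0.36, edgeR adjusted p = 0.0240). PMAIP1, BID and BBC3 are named after their values were seen.

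Of the genes that act on p53, 12 of the 25 tested were lower and 5 higher (median log2 fold change -0.18). These are 48% and 20%, against 31.3% and 32.7% of all tested genes. With total counts in place of TMM, 9 were lower and 6 higher (median -0.088), with upper-quartile factors 10 and 6 (-0.089), and with 1 CPM required in 3 libraries 10 and 6 (-0.10). HIPK2, a kinase that phosphorylates p53 at a serine, rose from 27.6 and 28 CPM to 163 and 170 CPM (log2 fold change 2.58, SE 0.07). The nucleolar proteins NCL and NPM1, which bind p53 or MDM2, fell, with NCL going from 2025 and 1986 CPM to 714 and 726 CPM and NPM1 from 1826 and 1719 CPM to 1022 and 1025 CPM. PRMT5, an arginine methyltransferase that modifies p53, fell from 148 and 148 CPM to 81.1 and 76 CPM.

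Cell cycle genes that p53 is known to lower through p21 and the DREAM complex moved both ways. Of the 25 tested, 12 were higher (48%) and 7 lower (28%), with a median log2 fold change of 0.11. Over all tested genes 32.7% were higher and 31.3% lower. With total counts or upper-quartile factors 15 were higher and 5 lower (median 0.21 with each), and with 1 CPM required in 3 libraries 15 and 5 (0.20). Without vehicle library B, 9 were higher and 5 lower. KIF23, a kinesin of cytokinesis, rose from 45 and 43.9 CPM to 75.8 and 74.8 CPM, and TOP2A, a topoisomerase of mitotic chromosomes, from 324 and 331 CPM to 487 and 500 CPM. CKAP2 fell from 145 and 140 CPM to 79.1 and 70.6 CPM, and CDC25A, a phosphatase that activates CDK2, from 69.3 and 69.9 CPM to 43.9 and 37.1 CPM. No gene of this list was called with a 2-fold change.

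GDF15 and SESN2 are also known targets of ATF4, the transcription factor of the amino acid and endoplasmic reticulum stress response. Of the 20 genes on the ATF4 list, these included, 17 were lower and 2 higher (median log2 fold change -0.88). That is 85% and 10%, against 31.3% and 32.7% of all tested genes. Of the 18 others, 17 were lower and 1 higher, with a log2 fold change of 1.15 (median -1.03). SLC7A5, a transporter of large neutral amino acids, fell from 701 and 685 CPM to 163 and 164 CPM, and PSAT1, an enzyme of serine synthesis, from 308 and 297 CPM to 90.5 and 89.5 CPM. SLC7A11, the cystine transporter, had a log2 fold change of -2.48, and its partner SLC3A2 one of -1.55. GDF15 went opposite to most genes of that list, while SESN2 was not called. Whether ATF4 or p53 had a part in either was not tested.

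Total counts of the 4 libraries ran from 36547900 to 42446253, and 3 counts in 1 library correspond to 0.0725 to 0.0854 CPM. Mitochondrially encoded genes took 4.91% and 5.64% of counts in vehicle and 7.65% and 6.93% in DB2115. Markers of myeloid leukaemia cells were all detected, with CD33, MPO, CD68 and CSF1R higher, PTPRC, LYZ and FLT3 lower and SPI1 not called. The summed level of 6 erythroid markers was 0.0285 to 0.121 CPM in vehicle and 0.411 to 0.440 CPM in DB2115. For 5 T and NK cell markers it was 17.5 to 20 against 79.9 to 84.5 CPM, nearly all of it NKG7, and for 3 B cell markers 1.48 to 1.57 against 12.7 to 13.6 CPM, mostly CD79A. For 5 markers of epithelium and fibroblasts it was 4.84 to 11.3 against 37.6 to 47.5 CPM, mostly COL1A1. Their part in the p53 target results was not tested.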

How the data were processed

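Per the labels' protocols, RNA was extracted from MOLM-13 cells and 1.0 µg per library was sequenced commercially. The deposited table holds raw counts per gene, to which the authors applied no normalisation. FastQC, STAR, DESeq2 and hg38 are named in the submitters' processing notes. Neither the annotation nor the counting tool and its strand setting is given in the sources used here, and reads of overlapping genes cannot be assigned with certainty. The column marked V equalled A plus B in 85.6% of genes with counts in vehicle and in 86.3% in DB2115. It was treated as pooled and left out. Columns A and B of a group differed beyond sampling noise (median chi-square per gene 1.48 in vehicle and 1.91 in DB2115, against 0.455 for sampling alone).

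Exon lengths and coordinates came from GENCODE release 29 (GRCh38), which holds 58261 of the 58381 identifiers, 56933 with the same version. Symbols came from a list of current gene names, or from GENCODE where that list gave none. Counts were filtered with filterByExpr (minimum count 10, minimum total 15), scaled by TMM and compared by the quasi-likelihood F test of edgeR 4.0.16 (R 4.3.3). Treatment was the single term, and p-values were adjusted by Benjamini-Hochberg over 17219 genes. The SE is the log2 fold change divided by the root of its F value, and falls below counting error for large changes of low genes. Levels are TMM-scaled CPM. The intervals and the limit of 3 counts cover counting error only. The fit was tested on simulated counts. In that simulation far fewer genes changed than were called in these data, so it does not cover a comparison in which most genes move. Alternatives were other scaling, filters, DESeq2 1.42.0, limma-voom (limma 3.58.1), a block on the column letters and each library left out.

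The members, roles and gene lists were chosen with earlier results of these data known. All 39 members are named, with CDKN1A and BAX, and from each other list up to 4 called genes with the smallest adjusted p. Some items are not reported here.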

Additional observations from a re-analysis of the deposited data

How the results depend on the processing

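Of the 39 genes, 21 to 24 were called higher and 7 to 9 lower under every alternative tried, with 29 to 32 of the 32 calls kept. The median log2 fold change of the members was 0.70 with total counts and 0.70 with upper-quartile factors, which shifted the median of all genes by 0.0951 and 0.0949. With these 2 scalings the medians were -0.088 and -0.089 for p53 regulators, 1.03 and 1.03 for other p53 targets, 0.21 and 0.21 for the p21 and DREAM list, and -0.79 and -0.79 for all 20 ATF4 targets (-0.88 with TMM). When 1 CPM in 3 libraries was required, the medians were -0.10 for p53 regulators, 0.84 for other p53 targets and 0.20 for the p21 and DREAM list, and 1 of 19 ATF4 targets was higher in place of 2 of 20, since GDF15 was not tested. Without a filter the median of other p53 targets was 1.02 and SPATA18 had a log2 fold change of 1.14 (adjusted p = 0.672). Leaving out 1 library gave a median of all 20 ATF4 targets from -1.02 (without DB2115 library B) to -0.80 (without DB2115 library A). The cause was not tested. Calls on BAX, MDM2, XPC, PLK3, CCNG1, POLH and TRIAP1 changed as given above.

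The labels number the replicates but the columns carry letters, so a replicate block could be made only on the letters. The differences between A and B correlated at 0.03 between the groups across genes, which does not show a pairing. With that replicate block 24 members were higher and 8 lower, with a median log2 fold change of 0.60, and 5810 genes were higher and 5614 lower in all. At these depths a gene with few counts, such as EDA2R or SPATA18, has a wide counting interval.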
